A study of Mus musculus with 10 samples.

Results

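CaMKII, calmodulin and neurogranin were followed through 9 genes of the 22255 in the deposited gene table, taken by symbol through their Ensembl identifiers, together with their 79 annotated transcripts. The genes are the 4 kinase subunits Camk2a, Camk2b, Camk2d and Camk2g, the inhibitors Camk2n1 and Camk2n2, the calmodulin genes Calm2 and Calm3, and the neurogranin gene Nrgn. RNA came from hippocampal synaptoneurosomes, membrane-bound particles broken off at synapses that reseal around their contents, of wild-type C57Bl/6J mice. The mice had received either vehicle (5 libraries) or a sub-chronic course of AM6545 (5 libraries), a peripherally restricted neutral antagonist of the CB1 cannabinoid receptor. Dose, age, sex and duration are not in the labels, which also do not say whether a library was 1 animal or a pool, so n counts libraries and the p-values measure the spread between libraries, which may be technical.

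Calmodulin is the small calcium sensor that switches on CaMKII when calcium enters a dendritic spine. CaMKII subunits assemble into large holoenzymes whose neighbouring subunits phosphorylate each other, which keeps the kinase active after calcium has fallen, and this is a core step of hippocampal long-term potentiation. Neurogranin, abundant in spines, holds calmodulin at low calcium and releases it when calcium rises. The inhibitor proteins encoded by Camk2n1 and Camk2n2 bind the activated kinase and block it. Camk2a and Nrgn mRNAs are textbook examples of transcripts carried into dendrites.

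All 9 genes were detected in all 10 libraries, and together they took 0.617 to 0.769% of the estimated counts. Library totals ran from 18106112 to 25899794 estimated counts. Genes of neurons and synapses were detected: 10 of 10 synaptic protein genes and 12 of 12 hippocampal subfield genes passed the filter on low counts, as did the oligodendrocyte and choroid plexus lists in full, so this does not check the synaptic enrichment. RNA of other cells was also present: 8 of 8 oligodendrocyte markers summed to between 12272 and 28275 TMM CPM (estimated counts per 1000000 of the library, with edgeR's TMM scaling), and choroid plexus markers spanned 68.0 to 5118 TMM CPM within the vehicle group. The summed level of every marker list overlapped between the groups; choroid plexus markers ran from 668 to 4059 TMM CPM in AM6545, with log2 fold changes above 0 in 0 of 8 and 0 past the test. Vehicle replicate 1, the highest for choroid plexus markers (5118 TMM CPM) and the lowest for excitatory neuron markers (1713, against 1952 to 2376 in the other libraries), was also the lowest of the 10 libraries for Camk2a, Camk2b and Camk2d and the highest for Camk2g and Calm2. AM6545 replicate 3, the highest of all libraries for oligodendrocyte (28275 TMM CPM, the next being 20977), astrocyte (3095) and red blood cell markers (1334), was the lowest for Calm2 and the second lowest for Camk2b and Camk2d. The part of cell makeup in those levels was not tested, and in bulk samples fewer cells of a type and less RNA per cell cannot be told apart.

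Calm2 was by far the most abundant member. To compare genes, estimated counts were divided by transcript length and scaled to a sum of 1000000 in each library (level per kilobase). On that scale Calm2 averaged 7499 ± 778 (SD, n = 10) and stood at rank 7 to 12 among all genes, in a group otherwise made up mostly of mitochondrial transcripts. Nrgn followed at 910 ± 82.6 and rank 95 to 140. Camk2b (406 ± 71.8) and Calm3 (403 ± 48.9) came next and could not be ordered: their ranges overlapped, and each was the higher of the pair in 5 of 10 libraries. Camk2a was lower at 151 ± 28.5, with ranks from 893 to 2177.

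Below these, the level per kilobase of Camk2n1 averaged 63.3 ± 5.48, that of Camk2d 26.1 ± 5.26, that of Camk2g 12.3 ± 1.32 and that of Camk2n2 10.7 ± 2.27. Camk2g and Camk2n2 also overlapped, Camk2g being higher in 7 of 10 libraries. Apart from those pairs, each gene exceeded the next in all 10 libraries and the ranges did not overlap. Within the family of kinase subunits, the beta gene had more mRNA per length than the alpha gene in every library, by 1.99- to 3.31-fold with a median of 2.91-fold.

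**Figure D1:**
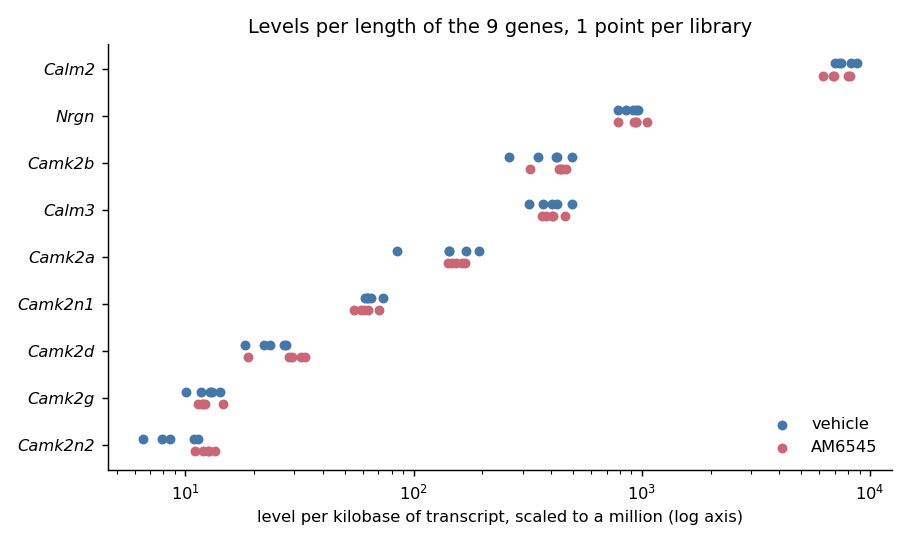
Level per kilobase, scaled to a sum of 1000000 per library, of the 9 genes in each of the 10 libraries on a log axis, with vehicle and AM6545 libraries in separate colours. Calm2 stands above 6217 in every library, while Camk2g and Camk2n2 share the bottom of the scale between 6.54 and 14.5.

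Calm2 and Calm3 encode the same protein from different sequences. Calm2 (ENSMUSG00000036438.15) lies on the minus strand at chr17:87433412-87446935 and Calm3 (ENSMUSG00000019370.11) on the minus strand at chr7:16915379-16924114, both in GENCODE M21 on GRCm38 (mm10). The first 90 coding bases are shown as an example of sequence that differs between these genes, with capitals at the 15 positions where they differ:
Calm2: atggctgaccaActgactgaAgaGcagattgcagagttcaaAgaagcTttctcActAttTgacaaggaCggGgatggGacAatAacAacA
Calm3: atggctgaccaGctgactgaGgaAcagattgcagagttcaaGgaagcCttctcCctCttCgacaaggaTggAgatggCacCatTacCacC
All 15 differences fall on the third base of a codon. Over the whole coding sequence of 447 bases, 78 bases differed and 74 of these were at the third base of a codon. Words of 31 bases shared with other annotated genes made up 22.98% of the leading Calm2 transcript, from Gm7308, Gm15720 and Gm14480, and 5.398% of the leading Calm3 transcript, from Gm5881. None of these 4 genes has a row in the table, so part of the Calm2 and Calm3 estimates is uncertain.

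Calm2 RNA outnumbered Calm3 RNA per length by 15.2- to 27.2-fold. The median ratio over the 10 libraries was 17.5. Set against neurogranin, Calm2 alone had 6.72 to 9.65 times its level per kilobase.

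The groups overlapped for both calmodulin genes. Calm2 stood at 5757, 3942, 4213, 5024 and 4278 TMM CPM in vehicle replicates 1 to 5 and at 3907, 4888, 3732, 4074 and 4643 in AM6545 replicates 1 to 5. The highest value and the lowest belonged to vehicle replicate 1 and AM6545 replicate 3, and the groups overlapped between them. The log2 fold change of AM6545 over vehicle was -0.13 ± 0.13 (SE) in edgeR, with a 95% interval from -0.40 to 0.14. It was -0.04 without vehicle replicate 1 and -0.08 without AM6545 replicate 3. Calm3 stood at 433, 524, 492, 447 and 489 TMM CPM in the vehicle libraries and at 417, 451, 479, 471 and 526 in the AM6545 libraries. One AM6545 library was below and another above all vehicle libraries. Its log2 fold change of -0.03 ± 0.10 (95% interval -0.23 to 0.18) turned to 0.01 without vehicle replicate 2 and to 0.01 without AM6545 replicate 1.

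Nrgn (ENSMUSG00000053310.12, minus strand, chr9:37544492-37552904) showed no difference beyond the spread either. Vehicle replicates 1 to 5 held 741, 639, 589, 649.5 and 654 TMM CPM of Nrgn and AM6545 replicates 1 to 5 held 558, 699.7, 684, 682 and 749. AM6545 replicate 1 was the lowest library and AM6545 replicate 5 the highest, so the treated group spanned the vehicle group. Its log2 fold change was 0.04 ± 0.10 (95% interval -0.18 to 0.26). On counts, the log2 ratio of Nrgn to Calm2 plus Calm3 averaged -2.96 ± 0.12 (SD, n = 5) in vehicle and -2.81 ± 0.14 (SD, n = 5) in AM6545, a difference of 0.15 with p = 0.111 (exact permutation test, two-sided; adjusted p = 0.444 over the 8 balance measures computed).

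The kinase subunits were dominated by beta and alpha. Camk2b (ENSMUSG00000057897.15) lies on the minus strand at chr11:5969644-6066362 and Camk2a (ENSMUSG00000024617.17) on the plus strand at chr18:60925618-60988152. Camk2d (ENSMUSG00000053819.17) lies on the plus strand at chr3:126596302-126846326 and Camk2g (ENSMUSG00000021820.19) on the minus strand at chr14:20734875-20794088. Per length, Camk2b made up a median of 69.1% of the 4 subunit mRNAs, Camk2a 23.9%, Camk2d 4.45% and Camk2g 1.92%. The alpha and beta subunits are the main forms of forebrain neurons, beta being the one that binds actin filaments, while delta and gamma are found in many tissues.

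Camk2a did not differ beyond the spread. It stood at 246, 388, 366, 359.8 and 335 TMM CPM in vehicle replicates 1 to 5 and at 318, 371, 383, 390.4 and 332 in AM6545 replicates 1 to 5. Vehicle replicate 1 was below the other 9 libraries, over which the groups overlapped. Camk2a had a log2 fold change of 0.08 ± 0.12 (95% interval -0.17 to 0.34), and -0.01 without vehicle replicate 1.

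Camk2b too was lowest in vehicle replicate 1. Its values were 600.1, 895, 727, 876 and 827 TMM CPM in vehicle replicates 1 to 5 and 909.6, 892, 662, 858 and 867 in AM6545 replicates 1 to 5. Vehicle replicate 1 and AM6545 replicate 3 were the lowest libraries, and the rest overlapped. For Camk2b the log2 fold change was 0.09 ± 0.13 (95% interval -0.17 to 0.36); it was 0.01 without vehicle replicate 1 and 0.17 without AM6545 replicate 3.

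Camk2d was the subunit with the largest difference, and it did not pass the test across genes. Vehicle replicates 1 to 5 held 41.7, 49.2, 45.2, 45.6 and 54.7 TMM CPM and AM6545 replicates 1 to 5 held 62.3, 59.6, 42.5, 55.9 and 62.5. In 4 of 5 AM6545 libraries the gene stood above every vehicle library, while AM6545 replicate 3 was the second lowest of all 10 and the highest for oligodendrocyte markers. The log2 fold change was 0.26 ± 0.11 (95% interval 0.02 to 0.50), with an unadjusted p of 0.0381 and an adjusted p of 0.9998 by edgeR. Leaving out single libraries took the unadjusted p from 0.00334 without AM6545 replicate 3 to 0.104 without AM6545 replicate 1, and it was above 0.05 without vehicle replicates 1, 3 or 4 or AM6545 replicates 1, 2, 4 or 5, each in turn.

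Camk2g was spread widely by single libraries. It stood at 28.9, 17.003, 18.7, 21.1 and 21.4 TMM CPM in vehicle replicates 1 to 5 and at 18.9, 25.6, 19.3, 19.6 and 20.1 in AM6545 replicates 1 to 5. The highest values were those of vehicle replicate 1 and AM6545 replicate 2, and the other 8 lay between 17.003 and 21.4. The resulting log2 fold change was -0.05 ± 0.14 (95% interval -0.34 to 0.24), and 0.08 without vehicle replicate 1.

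**Figure D2:**
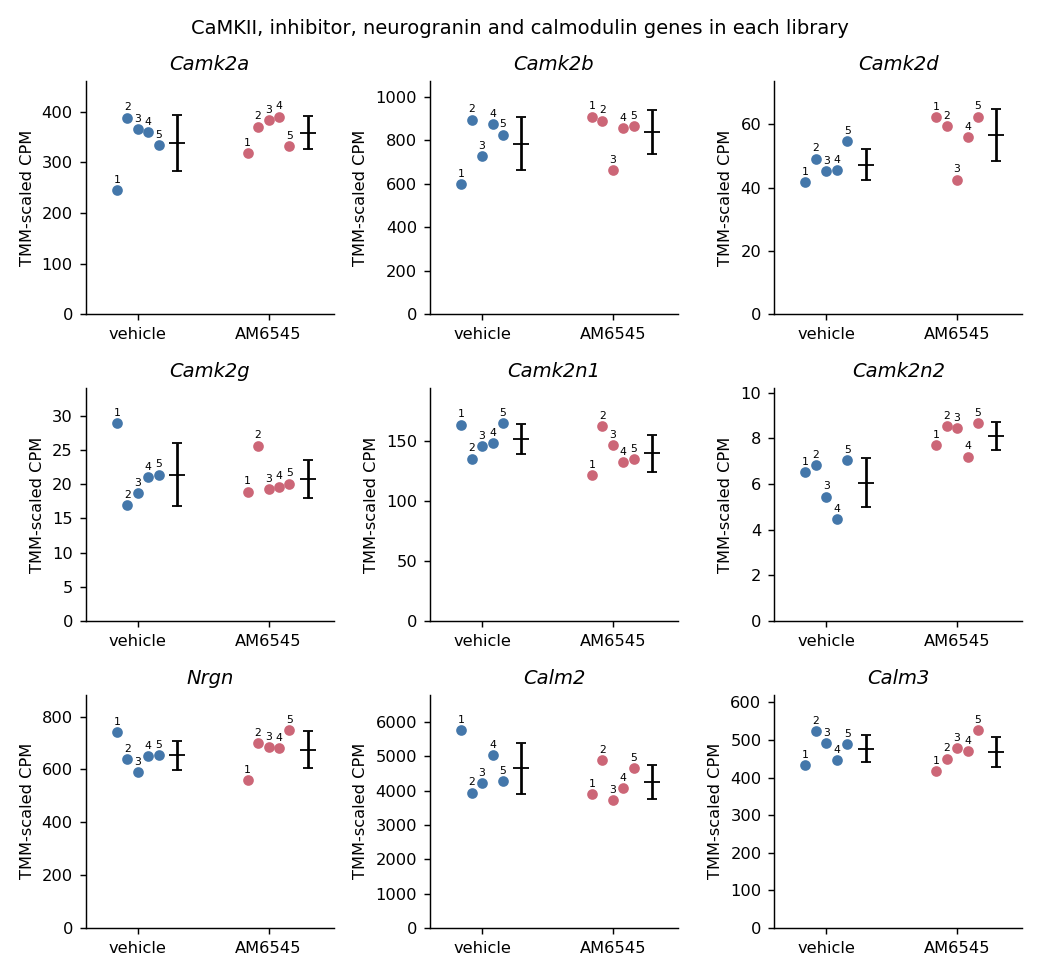
TMM CPM of each gene in each library, 1 panel per gene with its own axis; points are libraries, numbered by replicate, and the black dash with its bar is the group mean ± SD. The 5 AM6545 libraries of Camk2n2 all lie above the 5 vehicle libraries, and the groups overlap in the other 8 panels.

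Subunit composition did not shift detectably with treatment. Of the counts of the 4 subunit genes, Camk2a made up 28.4% ± 1.97 (SD, n = 5) in vehicle and 28.4% ± 3.98 in AM6545, and Camk2b 65.7% ± 1.74 and 65.6% ± 3.67. The Camk2d share was 4.01% ± 0.467 in vehicle and 4.42% ± 0.416 in AM6545, with p = 0.190 (exact permutation test; adjusted p = 0.508). For Camk2g the shares were 1.88% ± 0.735 and 1.63% ± 0.192, with p = 0.706 (exact permutation test; adjusted p = 0.942).

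The variable linker between the kinase domain and the assembly domain is where subunit isoforms differ, by small exons that are skipped or kept. The exons of Camk2b, Camk2d and Camk2g that separate the leading transcripts are shown in capitals, with 10 bases of the neighbouring exons in lower case:
Camk2b exon of 75 bases: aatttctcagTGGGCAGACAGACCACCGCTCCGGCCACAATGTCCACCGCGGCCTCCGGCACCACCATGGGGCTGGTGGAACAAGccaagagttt
Camk2b exon of 45 bases: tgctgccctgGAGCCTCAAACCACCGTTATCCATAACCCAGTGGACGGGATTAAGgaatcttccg
Camk2d exon of 60 bases: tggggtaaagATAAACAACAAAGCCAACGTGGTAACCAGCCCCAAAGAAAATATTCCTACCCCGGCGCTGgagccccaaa
Camk2d exon of 42 bases: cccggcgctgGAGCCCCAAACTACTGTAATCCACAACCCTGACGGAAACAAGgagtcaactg
Camk2g exon of 33 bases: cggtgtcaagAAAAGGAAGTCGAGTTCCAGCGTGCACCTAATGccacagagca
Camk2g exon of 69 bases: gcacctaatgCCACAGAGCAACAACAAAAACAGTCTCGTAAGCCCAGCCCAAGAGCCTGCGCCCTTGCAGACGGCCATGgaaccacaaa
They lie at chr11:5987057-5987131 and chr11:5981070-5981114 (minus strand) in Camk2b, at chr3:126805857-126805916 and chr3:126808208-126808249 (plus strand) in Camk2d, and at chr14:20747819-20747851 and chr14:20745792-20745860 (minus strand) in Camk2g. All are coding exons of the GENCODE M21 annotation on GRCm38.

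Exon shares here are sums over whole-transcript estimates, not counts of reads on the exon. The transcripts compared also differ elsewhere, as in a 2183-base exon of Camk2b-209 and a 3569-base exon of Camk2d-226. Reads on such exons also enter the shares, and their part was not tested. By these estimates Camk2b was nearly all of 1 annotated form. Transcripts with the 75-base exon held 97.0 to 97.8% of the Camk2b estimate in the 10 libraries and those with the 45-base exon 97.1 to 98.0%, through Camk2b-209, whose mean share was 97.3%. Camk2d was mixed: the 60-base exon was in 68.0 to 83.3% of its estimate and the 42-base exon in 67.2 to 84.1%. Camk2d-206, which carries both, had a mean share of 71.6%, and Camk2d-226, which carries neither, 17.6%.

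In Camk2g the estimates moved widely between libraries of 1 group. The 33-base exon, which like its counterpart in Camk2a encodes a stretch of basic residues known as a nuclear localization signal, was in 0.707% of the estimate in vehicle replicate 1 and in 46.3% in AM6545 replicate 2. The 69-base exon ranged from 9.09% in AM6545 replicate 4 to 73.1% in vehicle replicate 2. Camk2g-203, without either, took a mean of 63.0% (20.9 to 88.6%), and Camk2g-201 and Camk2g-202 took 18.1% and 13.5%, each listed at 0 in 3 libraries.

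Camk2a was mostly Camk2a-203, at a mean share of 86.5%. The form with the 33-base exon, known as alpha B, rested on Camk2a-201 (13.1%) and varied from 1.15% in vehicle replicate 1 to 28.7% in vehicle replicate 2, which are the extremes of all 10 libraries. Group means were 12.3% ± 10.1 (SD, n = 5) in vehicle and 13.98% ± 3.81 in AM6545. The AM6545 libraries lay within the vehicle range. Camk2a-201 and Camk2a-203 also differ in exons of 1631 and 3376 bases, so these shares do not rest on the 33-base exon alone.

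**Figure D3:**
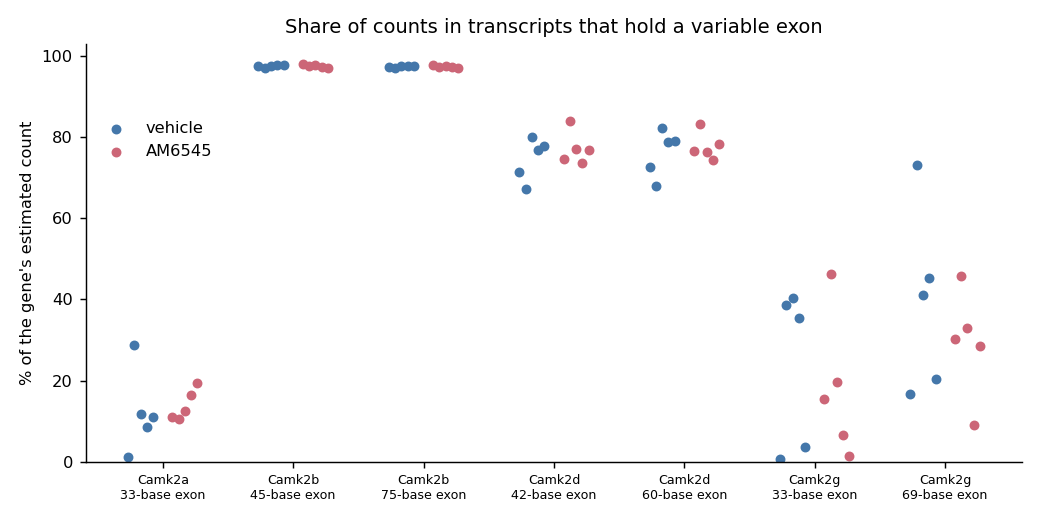
Percent of each gene's estimated count in transcripts that hold the named exon, by library, with vehicle and AM6545 in separate colours. The 2 Camk2b exons sit at 97.0% or above in every library, and the 69-base Camk2g exon runs from 9.09 to 73.1%.

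No member transcript passed a test. Of the 79 member transcripts 27 passed the filter, and 0 were past an adjusted p of 0.05 in the edgeR test of 31848 transcripts, where 0.00314% were called over all. Those with an unadjusted p under 0.05 were 2, against 1.97% of all transcripts: Camk2n2-201, the sole transcript of its gene, and Camk2d-206, with a log2 fold change of 0.29 ± 0.13. Transcript usage, the share of a transcript within its gene, was tested for 25 member transcripts, of which 0 passed (0.0194% of all) and 0 had an unadjusted p under 0.05 (0.820% of all). In simulated data the usage test called 2 of 47 transcripts changed 3-fold and the transcript test 26 of 66, so differences of that size could have been missed.

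Among the other leading transcripts, Calm2-201 held a mean of 87.9% of the Calm2 estimate and Calm2-204 12.02%. Calm2-204 had a log2 fold change of -0.46 ± 0.29, with a 95% interval from -1.12 to 0.20, and -0.21 without vehicle replicate 1. Nrgn-201 and Calm3-201 held 98.8% and 99.9% of their genes.

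Of the inhibitor genes, Camk2n2 was the member whose groups did not overlap. Camk2n1 (ENSMUSG00000046447.4) lies on the plus strand at chr4:138454314-138460123 and Camk2n2 (ENSMUSG00000051146.4) on the minus strand at chr16:20619215-20621287. They encode proteins of 78 and 79 codons. The stretch below was picked by base identity alone and was not matched to the part that binds the kinase. The most similar 81 bases of their coding sequences (bases 73 to 153 of Camk2n1 and 76 to 156 of Camk2n2) are shown with capitals at the 15 positions that differ:
Camk2n1: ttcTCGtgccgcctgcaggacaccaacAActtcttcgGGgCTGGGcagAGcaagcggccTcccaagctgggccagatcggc
Camk2n2: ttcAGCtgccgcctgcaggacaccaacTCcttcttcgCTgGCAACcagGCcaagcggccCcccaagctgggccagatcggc
The stretches were 81.48% identical, and the leading transcript of Camk2n2 shared 0 words of 31 bases with any other annotated gene, Camk2n1 included.

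Camk2n2 was higher in AM6545 libraries and did not pass the test across genes. Its values were 6.51, 6.82, 5.45, 4.46 and 7.06 TMM CPM in vehicle replicates 1 to 5 and 7.7, 8.53, 8.43, 7.2 and 8.65 in AM6545 replicates 1 to 5. Every AM6545 library stood above every vehicle library, the closest being vehicle replicate 5 and AM6545 replicate 4. Group means were 6.06 ± 1.08 (SD, n = 5) and 8.10 ± 0.627 TMM CPM, a 1.34-fold difference (95% interval 1.08 to 1.65) or 0.42 ± 0.14 on the log2 scale. The unadjusted edgeR p was 0.00939, rank 32 of the 14358 genes tested, and the adjusted p was 0.9998. The gene had 105 to 198 estimated counts per library, the fewest of the 9.

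Camk2n1, the more abundant inhibitor by 4.53- to 9.64-fold per length, did not differ beyond the spread. It stood at 163, 135, 145, 148 and 164 TMM CPM in vehicle replicates 1 to 5 and at 122, 162, 147, 132 and 135 in AM6545 replicates 1 to 5. The groups overlapped, with 3 AM6545 libraries below all vehicle libraries. Camk2n1 had a log2 fold change of -0.12 ± 0.10 (95% interval -0.33 to 0.10).

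Within the inhibitor pair the balance could be tested without any scaling between libraries. Camk2n2 made up 3.83, 4.80, 3.61, 2.93 and 4.12% of the inhibitor counts in vehicle replicates 1 to 5 and 5.95, 4.99, 5.44, 5.17 and 6.03% in AM6545 replicates 1 to 5. The groups did not overlap, and the means were 3.86% ± 0.688 (SD, n = 5) and 5.52% ± 0.465. The difference of 1.66 percentage points had p = 0.00794 by the two-sided exact permutation test, the smallest this design allows. Its adjusted p over the 8 measures was 0.0635. A single measure at the smallest p cannot get below that value, however large its difference. The adjusted p could therefore not reach 0.05 through this measure alone, and missing it decides nothing about the share. On the level per kilobase the difference was 4.61 percentage points, with the same p values. Each inhibitor gene has a single annotated transcript of fixed length, so that rescaling keeps the order of the libraries. Its p was therefore fixed in advance and adds no support. Both inhibitors together against the 4 kinase genes showed no difference beyond the spread, the log2 ratio of counts being -2.91 ± 0.31 in vehicle and -3.11 ± 0.20 in AM6545 (p = 0.278, exact permutation test; adjusted p = 0.556).

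**Figure D4:**
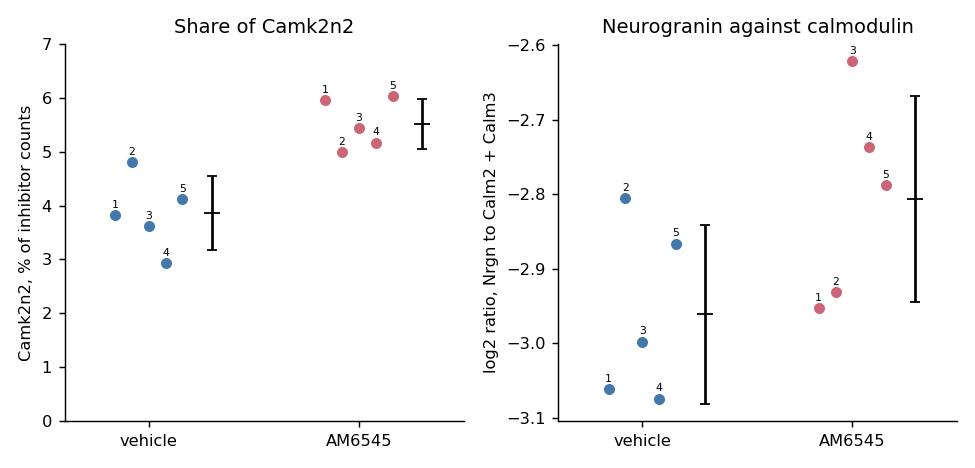
Camk2n2 as percent of inhibitor counts (left) and the log2 ratio of Nrgn to Calm2 plus Calm3 counts (right) by library; points are numbered by replicate and the black dash with its bar is the group mean ± SD. The Camk2n2 share of inhibitor counts runs from 2.93 to 4.80% in vehicle and from 4.99 to 6.03% in AM6545, and the log2 ratio runs from -3.07 to -2.80 and from -2.95 to -2.62.

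Across the 9 genes, 0 were past an adjusted p of 0.05 in the edgeR quasi-likelihood test of all 14358 genes, where 0% of genes were called and each member had an adjusted p of 0.9998. Camk2n2 and Camk2d, 2 of 9, had an unadjusted p under 0.05, both higher in AM6545, beside 1.88% of all genes tested and 1.14% in that direction. Groups did not overlap for 1 of 9, beside 0.293% of all genes. The log2 fold change was above 0 in 5 of 9, with a median of 0.04 against -0.01 over all genes tested. In simulated data of this size, with 200 genes changed at once, the test called 44 of 67 genes changed 1.5-fold and 58 of 67 changed 2-fold. So many changed genes ease the Benjamini-Hochberg threshold, while 0 genes were called in the real data. The simulated rates therefore do not give the chance of calling a lone changed gene. Smaller differences, such as the 1.34-fold of Camk2n2, were not simulated.

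**Figure D5:**
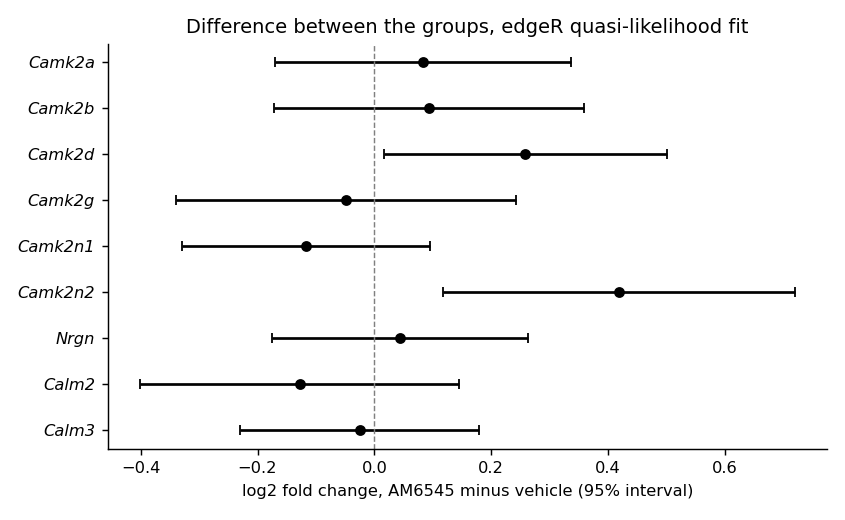
Log2 fold change of AM6545 over vehicle for the 9 genes, with 95% intervals from edgeR. The intervals of Camk2n2 (0.12 to 0.72) and Camk2d (0.02 to 0.50) lie above 0 before adjustment, and the other 7 span 0.

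No other gene of the pathway passed the test. Of 60 genes in 5 lists, 60 were tested, 0 passed and 0 had an unadjusted p under 0.05 in edgeR. Log2 fold changes were above 0 in 30 of 60, with a median of -0.0007 against -0.01 over all genes tested. In the list of 11 genes for calmodulin buffers and other calmodulin-binding proteins, the largest were -0.28 ± 0.25 for Pcp4l1 and 0.14 for Pcp4. Both encode small proteins with an IQ motif. Among 10 other calmodulin-dependent kinases they were 0.18 ± 0.23 for Mylk, the myosin light chain kinase, and 0.13 ± 0.13 for Camk1g.

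Of 14 other calmodulin-dependent enzymes, Nos1, the neuronal nitric oxide synthase, stood at 0.19 ± 0.12 and Atp2b1, a plasma membrane calcium pump, at -0.18 ± 0.14. Of 8 phosphatases and their inhibitors, Ppp1r1a, an inhibitor of protein phosphatase 1, stood at -0.18 ± 0.14 and Ppm1f, a phosphatase that acts on CaMKII, at 0.16 ± 0.14. Of 17 genes for postsynaptic anchors and for CaMKII substrates, Syn1, a presynaptic vesicle protein phosphorylated by CaMKII, stood at 0.29 ± 0.15. The 95% intervals of these genes all span 0.

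No pair of members was tied across libraries beyond the threshold. Over 36 pairs, 0 correlations of log2 TMM CPM passed an adjusted p of 0.05. The strongest was between Camk2g and Calm2, with Pearson r = 0.851 (permutation p = 0.00188, adjusted p = 0.0677) and Spearman rho = 0.794 over 10 libraries, and leaving out the 2 libraries with the most extreme Camk2g level gave r = 0.604. Camk2a and Nrgn, both dendritic mRNAs, had r = -0.256, which turned to 0.252 without vehicle replicate 1. Both members of the strongest pair are highest in vehicle replicate 1.

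The 5 genes with the pattern most like Camk2a over the 10 libraries, among 7495 genes with a mean of at least 20 CPM, were Zfp536 (r = 0.961), Insig1 (0.958), Trib2 (0.958), Kcna6 (0.952) and Abcd2 (0.940). Without vehicle replicate 1, the low library for Camk2a, their correlations were 0.904, 0.866, 0.823, 0.794 and 0.851. For Nrgn they were Tomm6 (r = 0.916), Ccl27a (0.884), Nudcd2 (0.880), Tceal6 (0.873) and Ndufb2 (0.856). These are the highest of many correlations over libraries that share depth and tissue makeup, and are given as a description.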

How the data were processed

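RNA of hippocampal synaptoneurosomes was sequenced from SMARTer ultra-low-input libraries, per the labels' protocols. The deposited values are estimated counts, in 1 table of genes and 1 of transcripts. The submitters' processing notes name Salmon 1.5.2 and mm10, while the annotation release and the use of strand are not given in the sources used here. Estimated counts were rounded before fitting edgeR 4.0.16 in R 4.3.3 (TMM, filterByExpr with minimum count 10, robust quasi-likelihood, group alone, Benjamini-Hochberg over all features tested). Usage was tested with diffSpliceDGE of edgeR, and ratios with exact permutation tests over 252 arrangements. Alternatives used DESeq2 1.42.0 and limma 3.58.1. Names, lengths and sequences came from GENCODE M21, matching 101527 of 102392 transcripts. Only 11 of the 22255 gene identifiers carried its version suffix, so the counts appear to rest on another release. Coordinates, and the lengths behind the levels per kilobase, are those of GENCODE M21. Reads were amplified and carry no molecular identifiers, so they are not independent molecules, and the standard errors leave out the uncertainty of assigning reads to transcripts.

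Group and replicate came from the titles, and the labels give no batch. The members, gene lists, tests and alternatives were chosen with earlier results of these data known. Named were all members, their transcripts with a mean share of at least 10% or an unadjusted p under 0.05, the 2 pathway genes per list with the largest absolute log2 fold change (none having an unadjusted p under 0.05), and the 5 genes most like Camk2a and Nrgn. Camk2b-201 was used only to pick out exons. Some items that these rules would name are not reported here. Simulated counts with 200 genes changed by known folds were used to test the models.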

Additional observations from a re-analysis of the deposited data

Results flagged for a closer look

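In 4 of 58 groups of 5 libraries, 1 library stood apart from the other 4 by Dixon's criterion, where chance gives about 2.9. Camk2b was lowest in AM6545 replicate 3 at 662 TMM CPM, against 858 to 909.6 in the other AM6545 libraries. Camk2g was highest in AM6545 replicate 2 at 25.6 TMM CPM, against 18.9 to 20.1 in the others. The Camk2g share of the 4 subunit genes was highest in vehicle replicate 1 at 3.15%, against 1.26 to 1.73%. Camk2d-226 held its lowest share of the Camk2d estimate in AM6545 replicate 2, at 11.8% against 18.3 to 19.8%.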

How the results depend on the processing

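Of 546 recomputed values, 485 were differences that kept their sign, though not always their size, or counts within 1.5 times of the reported one, 34 were counts that moved further and 27 were differences that changed sign. No member gene or transcript passed an adjusted p of 0.05 under any alternative. The Camk2n2 difference had an unadjusted p under 0.05 in 17 of 17 alternatives (0.00681 to 0.0300), that of Camk2d in 10 of 17. Over all genes, 1 passed with limma-voom, and genes at an unadjusted p under 0.05 numbered 706 with limma-voom and 433 with no filter. Transcripts past the threshold numbered 11 with DESeq2 and 0 with at least 10 counts in every library, and those of the usage test 2 with at least 10 counts. On the level per kilobase the Camk2n2 share differed by 4.61 percentage points in place of 1.66, and the Camk2b share by 0.020 in place of -0.16. The p values of the Camk2n2 share stayed the same, since that rescaling keeps the order of its libraries. Leaving out 1 library at a time gave 0 to 1 genes, 165 to 578 genes at an unadjusted p under 0.05, 0 to 4 transcripts and 11 to 19 transcripts of the usage test. Log2 fold changes then ran from -0.013 to 0.14 for Camk2a, -0.14 to 0.082 for Camk2g, -0.070 to 0.011 for Calm3, -0.16 to 0.81 for Camk2a-201, -0.17 to 0.39 for Camk2g-203, -1.31 to 0.18 for Camk2g-201 and -0.075 to 0.013 for Calm3-201. Without a change of sign they ran from 0.011 to 0.17 for Camk2b, 0.0035 to 0.097 for Nrgn, -0.18 to -0.039 for Calm2, -0.18 to -0.078 for Camk2n1, -0.63 to -0.21 for Calm2-204, -1.20 to -0.20 for Camk2g-202 and 0.016 to 0.12 for Camk2a-203, and from -0.28 to -0.079 for the log2 ratio of inhibitor to CaMKII genes. Differences in share ran from -1.56 to 1.01 percentage points for Camk2a, -1.14 to 1.28 for Camk2b, -0.40 to 0.073 for Camk2g and -1.03 to 0.15 for Calm2. The cause of these moves was not tested.

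Replicate numbers were not taken as pairs in the main tests. The correlations of same-numbered deviations were -0.14, -0.19, 0.23, 0.39 and 0.06. Differently numbered libraries were not compared in the same way, so these values cannot decide whether the numbers pair the libraries. With the number as a replicate block, 0 genes, 0 transcripts and 9 transcripts of the usage test passed, the log2 fold change was 0.087 for Camk2g-201, 0.74 for Camk2a-201 and -1.33 for Camk2g-202, and the Camk2n2 share had an exact sign-flip p of 0.0625, the smallest possible with 5 pairs. With 105 to 198 counts per library, Camk2n2 is the member most limited by depth.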
